A study of Mus musculus with 4 samples.

Results

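Ccr7, S1pr1, Klf2, Cxcr4 and Selplg are genes through which T cells enter, stay in and leave lymphoid organs, and their signal was read on 4 expression arrays of sorted mouse spleen T cells. Every probe set that the platform annotation gives to 1 of these symbols alone was taken, which yielded 5 probe sets of 22690, 1 for each gene. No probe set with several symbols carried any of the 5. The groups were CD4 T cells of Gfi1 knockout mice, CD4 T cells of wildtype mice, CD8 T cells of Gfi1 knockout mice and CD8 T cells of wildtype mice, all untreated, on the C57Bl/6 background and labelled as low in the adhesion receptor CD44. The Gfi1 protein binds DNA through zinc fingers and represses genes in many blood lineages. Each group had 1 array carrying the pooled RNA of 2 mice. Precision is limited by this number of arrays, and differences between animals were not measurable. The sources used here do not give the kind of knockout allele or the age of the mice.

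A naive T cell crosses from blood into a lymph node by rolling and sticking on the wall of a high endothelial venule. CCR7, a receptor coupled to inhibitory G proteins, reads the chemokines CCL19 and CCL21 shown there, and PSGL-1, the mucin-like protein made from Selplg, binds selectins once its sugar chains have been modified. CXCR4, the receptor for CXCL12, adds a second chemokine signal at the vessel wall and guides cells in bone marrow and thymus. S1PR1 senses sphingosine 1-phosphate, a lipid that is abundant in blood and lymph, and draws the cell out again, while KLF2, a zinc finger transcription factor of resting T cells, is known to activate S1pr1.

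Promoter sequence from RefSeq (GRCm38.p6) matched 2 of the 5 genes, Klf2 and Cxcr4. Both are shown because the KLF2 factor belongs to the circuit itself and because both genes had their lowest signal on the same array. Each line gives the 250 bases before the annotated start, 5′ to 3′ on the strand of the gene, at chr8:72318812-72319061 (plus strand) for Klf2 and chr1:128592300-128592549 (minus strand) for Cxcr4. Capitals mark CACCC on either strand, a box that Krüppel-like factors can bind, the MEF2 box in Klf2, and GCATGC, the core of sites for the factor NRF1, in Cxcr4.
Klf2: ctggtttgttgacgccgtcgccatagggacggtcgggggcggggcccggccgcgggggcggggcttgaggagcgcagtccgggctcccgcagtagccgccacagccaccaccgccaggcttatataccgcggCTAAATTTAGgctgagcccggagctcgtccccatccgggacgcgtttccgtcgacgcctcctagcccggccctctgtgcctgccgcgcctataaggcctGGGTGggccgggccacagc
Cxcr4: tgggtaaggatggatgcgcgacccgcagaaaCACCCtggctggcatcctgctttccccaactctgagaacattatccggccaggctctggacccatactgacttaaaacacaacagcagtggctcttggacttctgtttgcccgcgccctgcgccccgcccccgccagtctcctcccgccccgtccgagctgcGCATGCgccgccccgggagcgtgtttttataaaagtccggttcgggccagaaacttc

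The MEF2 box of Klf2 begins 118 bases before the start, and 1.69% of 32851 promoter windows of this length hold such a box on either strand. GCATGC begins 57 bases before the start of Cxcr4 and occurs in 6.7% of the windows. CACCC begins 219 bases before the start of Cxcr4 and, on the other strand, 19 bases before that of Klf2, and it occurs in 52.0% of windows. AATC, the core that Gfi1 recognises, has no match on either strand in these windows and occurs in 69.0% of all of them. CACCC, the MEF2 box, GCATGC and AATC do not overlap each other in either window. A match describes the letters only, and no binding was measured here.

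The labels were set beside marker genes first. Cd4 read 5470 on the knockout CD4 array and 5901 on the wildtype CD4 array, and 8.4 and 18.9 on the knockout and wildtype CD8 arrays. Cd8a read 16639 and 15920 on the knockout and wildtype CD8 arrays, and 89.6 and 67.2 on the knockout and wildtype CD4 arrays. Cd8b1, the other chain of CD8, read 25715 and 26222 on the knockout and wildtype CD8 arrays, and 971 against 312 on the knockout and wildtype CD4 arrays, 3.11-fold higher in the comparison in which the 5 genes were also higher. The part of CD8 cells in the CD4 values was not tested. Gfi1 itself was not lower on the knockout arrays (2891 against 2272 in CD4, 2447 against 1158 in CD8), and the sources used here do not place its probe set inside or outside the deleted part. Cd44 read 196 and 252 on the knockout CD4 and CD8 arrays against 8136 and 5740 on the wildtype CD4 and CD8 arrays. This goes against the shared label of low CD44, and the sample titles also end in N for both knockout samples and in M for both wildtype samples, letters the labels do not explain. Every difference between genotypes below is therefore between arrays labelled knockout and wildtype that also differ in Cd44, and genotype, Cd44 level and title letter cannot be told apart.

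In CD4 cells the signal of all 5 genes was higher on the array labelled knockout, by 1.30-fold to 3.25-fold, where 45.4% of all genes and 65.1% of genes of like or higher signal were higher by any amount. In CD8 cells the folds lay between 0.890 and 1.498, and no gene passed 2-fold. The CD8 values of Klf2, Cxcr4 and Selplg, slightly lower on the knockout array as deposited, turned to log2 differences of 0.09, 0.05 and 0.13 with arrays centred on their medians, which placed the median of all 8629 genes at 0.17 in CD8 and 0.25 in CD4 cells. The array labelled wildtype CD4 had the lowest signal of the 4 for each of the 5 genes, which was so for 26.1% of the 8629 genes above a low-signal floor of 93.9 on at least 1 array. Among the genes of like or higher signal, the 1064 whose mean signal was at or above the lowest of the 5, at 4128, that share was 41.4%. Comparisons with these 1064 were added after the values were seen. All 5 genes lay far above the floor on every array, with lowest signals 28.2 to 103 times the floor.

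**Figure D1:**
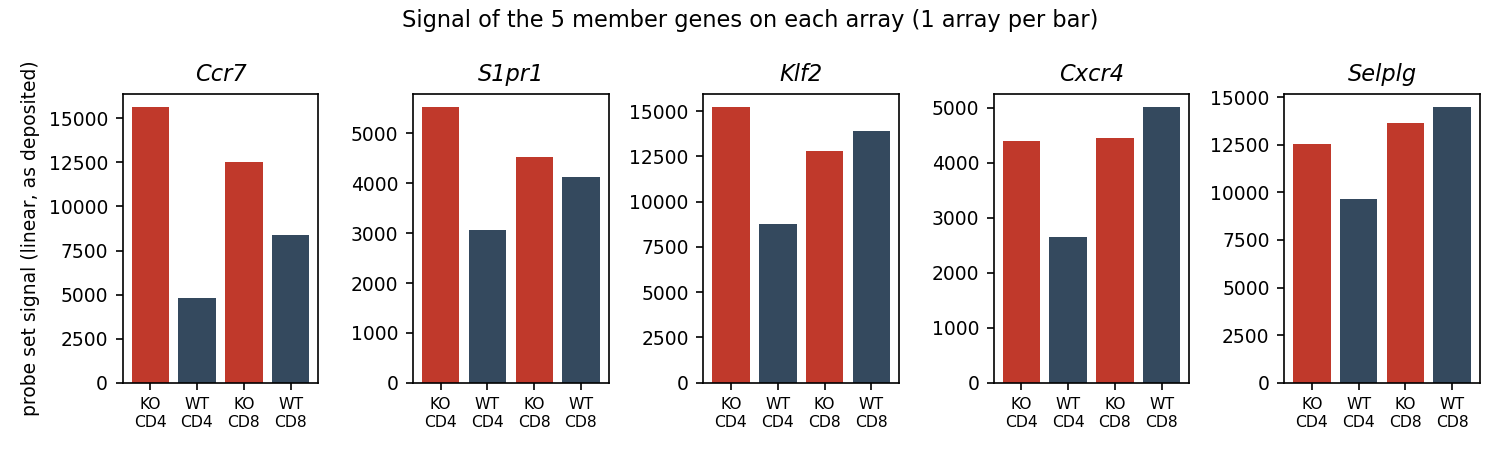
Probe set signal of Ccr7, S1pr1, Klf2, Cxcr4 and Selplg (vertical axes, linear, as deposited and starting at 0, with a scale of its own for each gene) on the 4 arrays, with 1 array per bar, knockout (KO) in red and wildtype (WT) in blue-grey. The wildtype CD4 bar is the lowest in each panel, and the knockout bar stands above the wildtype bar of CD8 cells for Ccr7 and S1pr1.

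Ccr7, the entry receptor, had the widest range of the 5. Its signal was 15625 on the knockout CD4 array against 4805 on the wildtype CD4 array, and 12549 on the knockout CD8 array against 8380 on the wildtype CD8 array. Both knockout arrays lay above both wildtype arrays. The knockout signal was 3.25 times the wildtype signal in CD4 and 1.498 times in CD8 cells, log2 differences of 1.70 and 0.58. With 1 array on each side there is no test of either. In CD4 cells 32 of the 8629 genes had a higher difference than Ccr7, and 4 of the 1064 genes of like or higher signal did. In CD8 cells these numbers were 357 and 14.

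S1pr1, the egress receptor, followed the same order with smaller steps. It read 5523 on the knockout CD4 array against 3071 on the wildtype CD4 array, and 4532 on the knockout CD8 array against 4126 on the wildtype CD8 array. The knockout arrays again lay above both wildtype arrays, by a small margin in CD8 cells. Knockout over wildtype, this was 1.80-fold in CD4 cells and a log2 difference of 0.14 in CD8 cells. Of all 8629 genes, 3.16% had a higher difference in CD4 cells and 27.0% in CD8 cells.

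Klf2 had a CD4 difference close to that of S1pr1. Its signal was 15207 on the knockout CD4 array against 8784 on the wildtype CD4 array, a fold of 1.73. In CD8 cells it was 12817 on the knockout array against 13923 on the wildtype array, a fold of 0.921. The genotypes overlapped, since the wildtype CD8 value lay between the values of the knockout arrays.

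Cxcr4 and Selplg were highest on the wildtype CD8 array. Cxcr4 read 4393 against 2652 in knockout and wildtype CD4 cells, a fold of 1.66, and 4459 against 5010 in knockout and wildtype CD8 cells, a fold of 0.890. Selplg read 12538 against 9656 in knockout and wildtype CD4 cells, a fold of 1.30, and 13640 against 14470 in knockout and wildtype CD8 cells, a fold of 0.943. For both genes the genotypes overlapped, with the wildtype CD8 array above and the wildtype CD4 array below both knockout arrays.

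The folds were then counted beside those of all genes. In CD4 cells 1 of the 5, Ccr7, was at least 2-fold higher on the knockout array, against a background of 1.95% of 8629 genes. At 1.5-fold, 4 of the 5 were higher (Ccr7, S1pr1, Klf2 and Cxcr4), against 7.25% of all genes and 7.14% of the 1064 of like or higher signal. The median log2 difference of the 5 was 0.79, beside 0.12 for the genes of like or higher signal. In CD8 cells 0 of the 5 were at least 2-fold higher, against 1.14% of all genes, or at least 2-fold lower, against 4.02%, and their median was -0.09, beside 0.04. Both knockout arrays lay above both wildtype arrays for 2 of the 5, against 17.5% of all genes and 31.4% of those of like or higher signal.

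**Figure D2:**
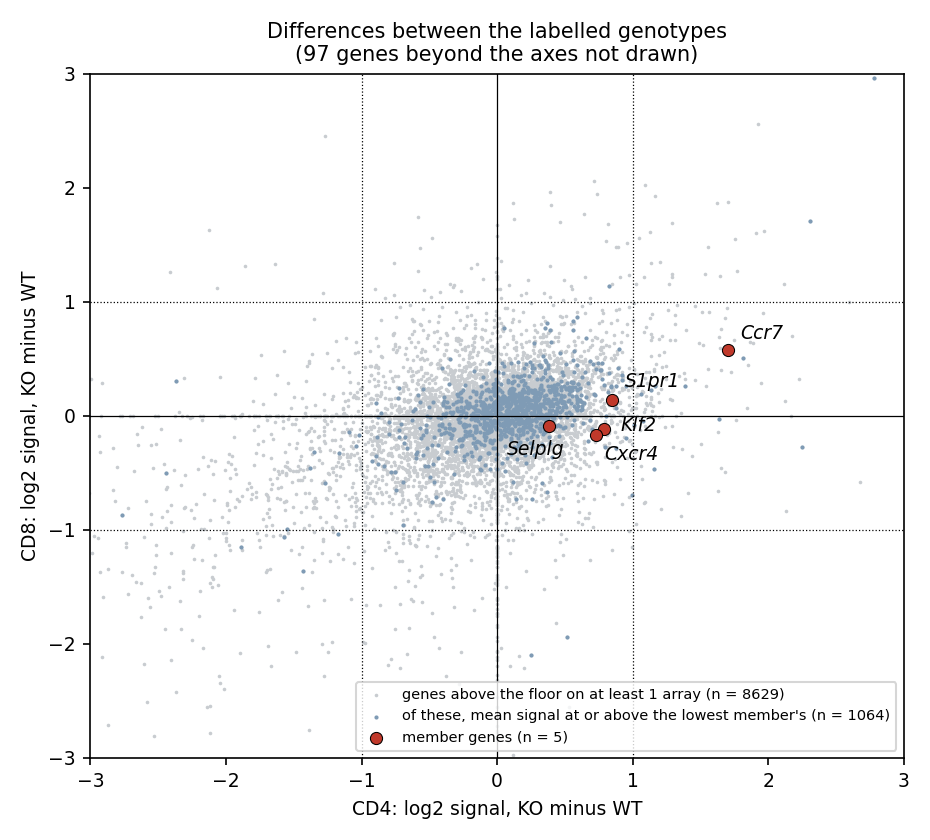
Log2 signal of knockout minus wildtype in CD4 cells (horizontal axis) and in CD8 cells (vertical axis) for each gene above the floor on at least 1 array (grey), those of like or higher signal (blue) and the 5 homing and egress genes (red). Dotted lines mark 2-fold, values at the floor enter as bounds, and 97 genes lie beyond the axes. All 5 red points lie right of 0, with Ccr7 past the 2-fold line of CD4 cells, and between -0.17 and 0.58 on the CD8 axis.

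The 4 arrays can be joined in 1 model with subset and genotype as terms, which was fitted with limma across all 8629 genes. It called 0 of the 5 for genotype, where it called 0.104% of all genes as higher and 0.545% as lower. The effect was largest for Ccr7, at a log2 value of 1.14 ± 0.26 (SE), and limma's adjusted p was 0.119. S1pr1 had an effect of 0.49 ± 0.19 (limma, adjusted p = 0.326), and adjusted p was 0.605 for Klf2, 0.663 for Cxcr4 and 0.792 for Selplg. At an unadjusted p under 0.05 limma counted 2 of the 5, Ccr7 and S1pr1, against 13.2% of all genes. With 1 residual degree of freedom, the error is the gap between the CD4 and CD8 effects joined with a prior from genes of like signal, so its SE is no spread between mice. Among the alternatives tried, limma called Ccr7 with a floor at the 25th percentile (adjusted p = 0.000144), with a pseudocount in place of the floor (0.0125) and among genes that clear the floor on every array (0.0308), and its adjusted p lay between 0.0964 and 0.331 in the others.

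CD8 and CD4 cells were compared within each labelled genotype as well. On the wildtype arrays all 5 genes were higher in CD8 cells, as 47.3% of all genes were, with log2 differences of 0.92 for Cxcr4, 0.80 for Ccr7, 0.66 for Klf2, 0.58 for Selplg and 0.43 for S1pr1. None reached 2-fold, against 3.13% of all genes at least 2-fold higher, and 3 of the 5 (Ccr7, Klf2 and Cxcr4) were at least 1.5-fold higher, against 8.74%. On the knockout arrays the same differences were 0.02, -0.32, -0.25, 0.12 and -0.29, none past 2-fold in either direction, where 1.94% of all genes passed 2-fold upward and 1.27% downward. With limma the subset term called 0 of the 5, with adjusted p from 0.568 to 0.951, and it called 0.185% of all genes as higher and 0.0695% as lower in CD8 cells. At an unadjusted p under 0.05 it counted 0 of the 5, against 9.67% of all genes. The 2 comparisons against wildtype CD4 share that array, so their common direction rests on the same low array.

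The order of the arrays differed by gene. For Ccr7 it ran, from high to low, knockout CD4, knockout CD8, wildtype CD8 and wildtype CD4, and S1pr1 had the same order. Klf2 ran knockout CD4, wildtype CD8, knockout CD8 and wildtype CD4. Cxcr4 and Selplg ran wildtype CD8, knockout CD8, knockout CD4 and wildtype CD4. Without replicates neighbours cannot be separated, and in Cxcr4 the knockout arrays were within 1.02-fold of each other. The wildtype CD4 signal was 39.4% of the mean of the other arrays for Ccr7, 57.4% for Cxcr4, 62.8% for Klf2, 65.0% for S1pr1 and 71.3% for Selplg.

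The difference between the subsets, the CD8 effect of the knockout label minus the CD4 effect, was below 0 for all 5. It was -1.12 on the log2 scale for Ccr7, -0.91 for Klf2, -0.90 for Cxcr4, -0.71 for S1pr1 and -0.46 for Selplg. A lower effect in CD8 than in CD4 cells was found for 50.1% of all genes and 59.8% of those of like or higher signal. No degree of freedom is left to test this difference with 4 arrays. All 4 arrays enter each of the 5 values with equal weight, the wildtype CD4 array among them.

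Signal of marker genes of other cell types was uneven over the same arrays. The wildtype CD8 array had 4 of 4 MHC class II genes at its highest level, with a summed signal of 46620 there against 4034 on knockout CD4, 3780 on wildtype CD4 and 1443 on knockout CD8. Summed signal of 5 dendritic cell genes was 406 on knockout CD4, 316 on wildtype CD4, 219 on knockout CD8 and 2094 on wildtype CD8. All 5 were below the floor on wildtype CD4, and most were on both knockout arrays. For 3 natural killer genes the sum was 121 on knockout CD4, 225 on wildtype CD4, 630 on knockout CD8 and 5855 on wildtype CD8. Most of the natural killer sum on wildtype CD8 was Gzma (5633), which killer T cells also express. Klra8 read 221 there and was below the floor on the other arrays, and Ncr1 was below the floor on all 4 arrays. Of 7 B cell genes, Ms4a1, Cd79a and Pax5 were below the floor on all 4 arrays, while Ighm was between 10871 and 16664 and made up most of the B cell sum, which was between 12616 and 16983. Cd22 fell in the limma fit (adjusted p = 0.0232): it read 154 against 1124 in knockout and wildtype CD4 cells, 7.30-fold lower, and 76.3, below the floor, against 615 in knockout and wildtype CD8 cells, at least 6.55-fold lower. Cd79b read 57.1, below the floor, against 305 in knockout and wildtype CD4 cells and 738 against 759 in knockout and wildtype CD8 cells. Ccr7 and Cxcr4 are also expressed by dendritic and B cells. The part of such cells in the values of the 5 genes was not tested. In CD4 cells the class II and dendritic sums of both arrays were close, though most dendritic genes were below the floor there. The 4 T cell genes summed to 68704 on the knockout CD4 array against 63364 on the wildtype CD4 array. On the CD8 arrays they summed to 71322 on knockout against 67937 on wildtype. In sorted pools of this kind fewer cells that express a gene and less of its RNA per cell cannot be told apart.

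Around the 5 genes, 6 lists of partners were followed, in which 73 of 99 genes were above the floor. In CD4 cells 2 passed 2-fold upward and 11 downward on the knockout array, against 1.95% and 7.3% of all genes, and in CD8 cells 0 and 6, against 1.14% and 4.02%. Their median log2 differences were -0.03 in CD4 and -0.06 in CD8 cells, beside 0.79 and -0.09 for the 5 homing and egress genes. The limma fit called 2 of the 73 for genotype, St3gal6 and Rgs1, both lower, against 0.545% of all genes called as lower. Each was called as deposited and in 4 of 9 alternatives, with the adjusted p of limma reaching 0.111 for St3gal6 and 0.196 for Rgs1.

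Of 7 genes for CCR7 ligands and for receptors that bind chemokines without G protein signals, the 3 named on the array were receptor genes with little signal, and no ligand gene was analysed here. Ccrl2, which encodes a surface protein that presents the attractant chemerin, read 92.2 on knockout CD4, below the floor, against 463 on wildtype CD4, so it was at least 4.93-fold lower. In CD8 cells it read 99.4 on the knockout and 143 on the wildtype array. Ackr2, a scavenger of inflammatory chemokines, did not exceed 107 on any array, and Ackr4, the scavenger of CCL19 and CCL21, was below the floor on all.

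Of 17 adhesion and migration genes, 0 were at least 2-fold apart in both subsets, a share that was not counted over all genes. Coro1a, which encodes an actin regulator needed for T cell emigration, read 37744 against 33415 in knockout and wildtype CD4 cells and 32927 against 34357 in knockout and wildtype CD8 cells. Rac2, a GTPase of the cytoskeleton, read 17463 against 19803 and 15574 against 18434 in the same pairs. Rap1b, a GTPase that activates integrins, had log2 differences of 0.16 and -0.03, and Fermt3, which encodes the integrin activator kindlin-3, 0.07 and 0.02. Thus the partners with the most signal varied less between the genotypes than Ccr7. Chosen after their values were seen, Itgal, the alpha chain of the integrin LFA-1, was 2.78-fold lower and Icam2, which encodes a ligand of that integrin, 2.10-fold higher on the knockout array in CD4 cells, with log2 differences of -0.24 and -0.05 in CD8 cells.

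Among 11 sphingosine 1-phosphate genes above the floor, S1pr4, a lymphocyte receptor for the same lipid, had a smaller CD4 difference than S1pr1. It read 5835 against 5263 in knockout and wildtype CD4 cells and 5793 against 5624 in knockout and wildtype CD8 cells. The genes of the linker proteins moesin and ezrin, Msn and Ezr, had log2 differences of 0.29 and 0.45 in CD4 and 0.14 and 0.19 in CD8 cells. A second probe set gave -0.43 for Ezr in CD4 cells, and a second one of Msn gave -0.18 in CD8 cells. Plpp1, which encodes a lipid phosphatase, was below the floor on both knockout arrays and read 223 and 394 on the wildtype CD4 and CD8 arrays, so it was at least 2.37-fold and 4.19-fold lower (limma, adjusted p = 0.0883). Another Plpp1 probe set gave -0.33 and -0.60, with both knockout signals below the floor, and a further one was below the floor on all arrays. S1pr5, a receptor that natural killer cells use to leave tissues, read 369 on the wildtype CD8 array alone and was below the floor on the other arrays. This gene was chosen after its values were seen. The natural killer cell sum above, most of it Gzma, was highest on the wildtype CD8 array as well, while Ncr1 was below the floor there. The part of natural killer cells in the S1pr5 signal was not tested.

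Of 15 genes that regulate or resemble Klf2 and lay above the floor, the upstream factor gene Foxo1 was near level. Foxo1 drives Klf2 and Il7r in naive T cells, and its lead probe set read 3917 against 3831 in knockout and wildtype CD4 cells and 3621 against 4004 in knockout and wildtype CD8 cells. Another of its probe sets gave log2 differences of 0.48 and 0.40. Klf13, a relative of Klf2, had a log2 difference of 1.17 in CD4 and 0.46 in CD8 cells, but a second probe set gave 0.05 and -0.20. Foxp1, which keeps naive T cells quiescent, had 0.92 in CD4 and 0.33 in CD8 cells (limma, adjusted p = 0.179), with 7 probe sets that all pointed the same way. Klf6 had 0.02 and -0.17. Nedd4, a ubiquitin ligase gene, had knockout signals at least 7.92-fold lower in CD4 cells and 2.31-fold lower among CD8 cells (limma, adjusted p = 0.108). Other Nedd4 probe sets gave -1.54 (knockout below the floor) and -2.16 in CD4 cells, and -0.94 and -0.93, short of 2-fold, in CD8 cells.

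Among 14 genes that act on CXCR4 or its signal, 2 were at least 2-fold apart in both subsets by their lead probe sets, Rgs1 and Rgs16. The share of all genes 2-fold apart in both subsets was not counted. On the log2 scale the other 3 regulators of G protein signalling above the floor lay between -0.03 and 0.34 in CD4 cells. In CD8 cells they lay between -0.18 and 0.16. Rgs1, whose product shortens chemokine receptor signals, fell: it read 952 against 3516 in knockout and wildtype CD4 cells and 835 against 1895 in knockout and wildtype CD8 cells, 3.69-fold and 2.27-fold lower (limma, adjusted p = 0.0423). By its lead probe set Rgs16 was below the floor on both knockout arrays and at least 5.57-fold and 2.99-fold lower (limma, adjusted p = 0.0694). Its other probe sets were below the floor on 3 arrays. They gave log2 differences of -2.64 and -1.57 in CD4 cells, as bounds, and none in CD8 cells, where both arrays were below the floor. Rgs19, Grk6, the receptor kinase gene that acts on CXCR4, Cd164 and Mif, an alternative CXCR4 ligand, had log2 differences between -0.16 and 0.38 in CD4 and between -0.19 and 0.01 in CD8 cells. Cxcl12 and Ackr3, the genes of the ligand and its scavenger, were below the floor on all arrays.

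Of 14 selectin and glycan genes above the floor, St3gal6, a sialyltransferase that helps to build selectin ligands, fell in the limma fit (adjusted p = 0.0237). It read 324 against 1091 in knockout and wildtype CD4 cells and 906 against 2988 in knockout and wildtype CD8 cells, log2 differences of -1.75 and -1.72. A second probe set gave -1.22 and -1.76. Fut7 and Fut4, fucosyltransferase genes of the same pathway, were below the floor on all arrays, and Gcnt1, the branching enzyme gene, read 113 on wildtype CD4 and was below the floor elsewhere. Tpst2, which encodes a tyrosine sulfotransferase that acts on PSGL-1, had log2 differences of 0.02 and 0.06, B4galt1 -0.07 and 0.04, C1galt1c1, the chaperone gene of the core O-glycan enzyme, 0.51 and 0.20, and Galnt1, which starts O-glycans, -0.83 and -0.43. A second probe set of C1galt1c1 gave -0.13 and -0.34, with both knockout signals below the floor. Signals of separate probe sets cannot be ranked against each other, so these values bear on differences between arrays alone.

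**Figure D3:**
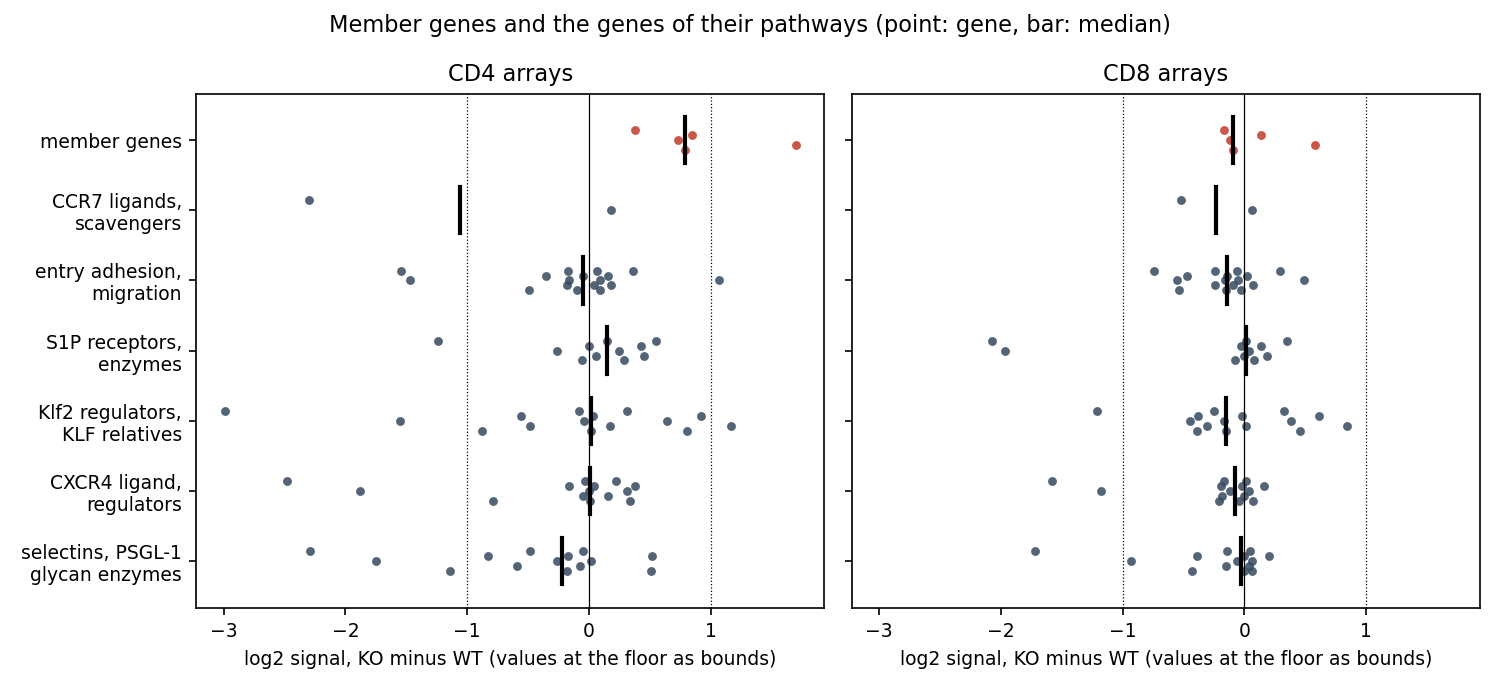
Log2 signal of knockout minus wildtype (horizontal axes) in CD4 cells (left panel) and CD8 cells (right panel) for the 5 homing and egress genes (red, top row) and the genes above the floor in 6 partner lists (blue-grey), with the median of each row as a black bar and 2-fold as dotted lines. The red points lie between 0.38 and 1.70 in CD4 cells and between -0.17 and 0.58 in CD8 cells, while most points of the other rows lie near 0 with tails toward lower values.

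The genes whose pattern over the 4 arrays was nearest to each of the 5 were found by the Euclidean distance between log2 values centred on each gene's mean, among 6882 genes that clear the floor on every array. For Ccr7 the nearest were Bach2, a repressor of effector genes, at a distance of 0.090, Tsc22d3, which encodes the glucocorticoid-induced leucine zipper protein, at 0.127, and Sgk3, a kinase gene, at 0.133. Bach2 read 3525 against 1134 in knockout and wildtype CD4 cells and 3050 against 1895 in knockout and wildtype CD8 cells. Tsc22d3 read 15600 against 4441 and 12439 against 8757 in the same pairs.

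The other 4 had nearer neighbours. For S1pr1 they were Arid3b, Fndc10 and Polr3d, at 0.053 to 0.070, for Klf2 Gm11517, Mrpl38 and Bysl, at 0.062 to 0.078, for Cxcr4 Ubald1, Entpd6 and Pes1, at 0.049 to 0.065, and for Selplg Dmac2, Gcdh and Zfp82, at 0.026 to 0.034. Among the 5 themselves the closest pair was S1pr1 and Klf2, at 0.231, where S1pr1 ranked 118 among the genes nearest to Klf2. Ccr7 and Selplg were farthest apart, at 1.055. With 4 arrays many genes share a pattern by their number alone, and all values of an array share its scaling, so the distances are descriptions.

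**Figure D4:**
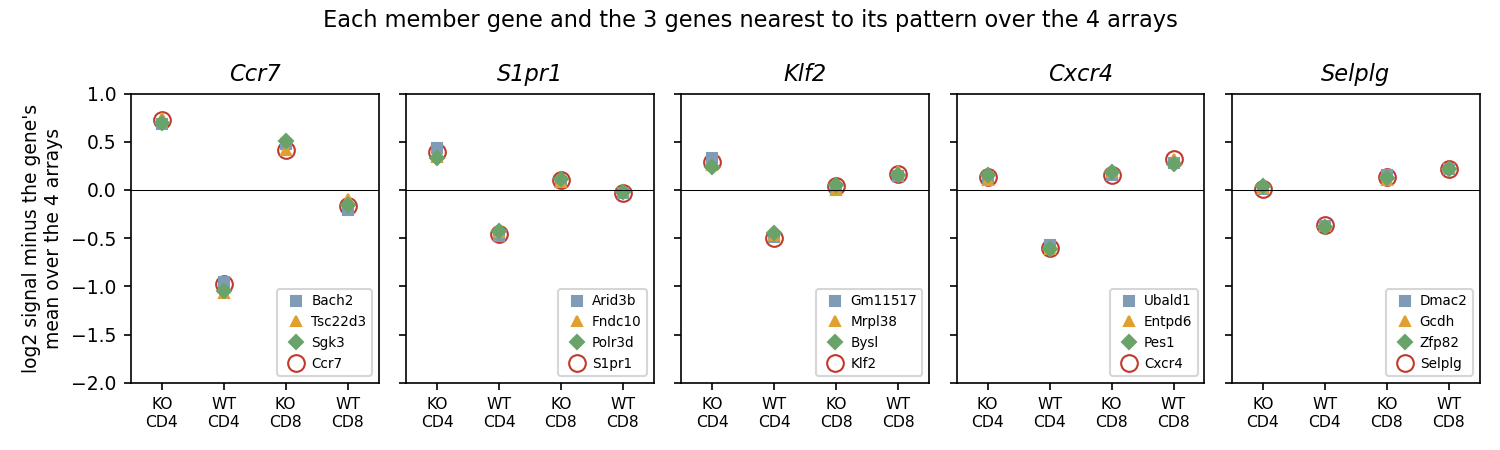
Log2 signal minus the gene's own mean over the 4 arrays (vertical axis) for each of the 5 homing and egress genes (open red circles) and the 3 genes nearest in pattern (filled symbols), with knockout (KO) left of wildtype (WT) in each subset. The symbols nearly coincide within each panel, and the wildtype CD4 array gives the lowest value in all 5 panels, lowest of all for Ccr7 and its neighbours.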

How the data were processed

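The deposited values are linear signal intensities of Affymetrix MOE430A_2.0 arrays. GCOS 1.4 and MAS5 are named in the submitters' processing notes, and other steps are not stated in the sources used here. With the outer 2% trimmed, array means were near 1000, as after scaling by the authors to a common target, and median signals were 189 to 235.

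Of 22690 probe sets, 64 controls were left out. The platform annotation gave 1 symbol for 20380, several for 691 and none for 1555, and 20351 matched RefSeq (GRCm38.p6) genes. Each of 12393 genes was represented by the probe set of highest mean log2 signal. Signals below the 40th percentile (93.9) were set to that floor before log2, and folds against it are lower bounds. Detection calls were not used here. Differences are log2 of knockout minus wildtype or CD8 minus CD4, with 2-fold as the threshold and no test within a comparison. The limma fit (limma 3.58.1, R 4.3.3, trend, prior degrees of freedom 5.39) had subset and genotype as terms over 8629 genes that exceeded the floor on 1 array or more. Its p-values were adjusted over all of them by Benjamini-Hochberg with a threshold of 0.05. The fit was also run on simulated data with independent noise and no floor, a setting unlike the floored values here. Other steps used Python 3.11.15.

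The genes named are the 5, Gfi1 and Cd44, the 4 of each partner list with the most signal, those 2-fold apart in 1 direction in both subsets, and the 3 nearest in pattern, except that some genes are not reported here. Itgal, Icam2, S1pr5 and Gcnt1, the list genes named as below the floor and the marker genes shown were chosen after their values were seen. The 5 genes and the lists were chosen with earlier results of these data known. Nothing in the labels shows whether CD4 and CD8 cells came from the same mice.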

Additional observations from a re-analysis of the deposited data

Results flagged for a closer look

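For 3 of the 5 genes the knockout label went with a higher signal in CD4 cells and a lower one in CD8 cells, on 1 pair of arrays each, so this difference in direction was not tested. The log2 effect in CD8 minus that in CD4 cells was -0.91 for Klf2, -0.90 for Cxcr4 and -0.46 for Selplg. All 3 CD8 values lay within 0.17 of 0 and turned positive with median centring. The share of all genes with opposite signs in the subsets was not counted, so the opposite signs do not set these genes apart.

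Of the partner genes named, 9 also had opposite signs in the subsets by their lead probe sets, and these differences were not tested either. None but Icam2 (1.07 in CD4 cells) had a log2 difference above 0.38 in size. Without the share of all genes with opposite signs, which was not counted, this number does not set the partner genes apart. Another probe set of Foxo1, Rap1b, Rgs19, Coro1a and Klf6 had the same sign in both subsets. A further probe set of Foxo1, Rap1b, Coro1a and Klf6 and the other of Grk6 had opposite signs. The CD8 effect minus the CD4 effect was -1.12 for Icam2, -0.57 for Grk6, -0.36 for Rgs19, -0.24 for Coro1a, -0.19 for Rap1b, -0.19 for Klf6, -0.18 for Foxo1, 0.11 for B4galt1 and 0.06 for Cd164. The marker gene Cd8b1 had log2 differences of 1.64 in CD4 and -0.03 in CD8 cells, an untested difference of -1.66.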

How the results depend on the processing

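Other scalings, floors, a pseudocount of 16 and other choices of probe set left 137 of 140 member differences on the same side of 2-fold, and none past 2-fold changed sign. Most of these comparisons could not have come out otherwise. Each member has 1 probe set and lay far above the floor. The floors and the choices of probe set therefore could not move its differences, and the pseudocount hardly could. Only the scalings could, and every change of side came with median centring. With median centring 4 members passed 2-fold in CD4 cells against 1 as deposited, S1pr1 (log2 1.16), Klf2 (1.11) and Cxcr4 (1.04) joining Ccr7. That centring raised all CD4 differences. With a fold of 1.5 the counts were 4 in the CD4 comparison and 3 for wildtype CD8 over wildtype CD4. For genotype limma called 1 member, Ccr7, with the floor at the 25th percentile, with the pseudocount and among genes that clear the floor on all 4 arrays, and 0 elsewhere. It called 56 genes as deposited, 578 with the lower floor, 373 with the pseudocount, 201 among genes that clear it on every array, 174 over all probe sets, 55 without probe sets of several transcripts, 31 with the floor at the 60th percentile, 17 with median centring, 15 after quantile normalization, 10 with averaged probe sets and 0 without the trend. For the subset it called 22 genes as deposited and 2 to 299 otherwise, and no member. Over these settings the log2 difference of Ccr7 lay between 1.60 and 2.02 in CD4 and between 0.55 and 0.80 in CD8 cells. The causes of these shifts were not tested. No array could be left out of a comparison, since each group has 1. No paired analysis was possible because each group holds 1 sample and the labels carry no replicate numbers.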
